A study of Mus musculus with 14 samples.

Results

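The genes described here are named for proteins of the cytosolic ribosome and were measured on Affymetrix Mouse Genome 430 2.0 arrays in mouse brain and muscle. Members were taken by symbol: probe sets whose single annotated symbol begins with Rpl or Rps and a digit, or is Rplp0, Rplp1, Rplp2 or Rpsa, without the Rps6k kinases and symbols ending in -ps. The rule gave 106 of 45037 probe sets that are no controls, and these stood for 50 genes, 26 named for the large subunit and 24 for the small. Another 110 probe sets carry such a symbol beside others, so they name no gene here, and 28 ribosomal protein symbols, Rpl3, Rpl5 and Rplp1 among them, occurred only there. The mice were F1 hybrids of FVB and B6. One genotype, PWS-IC del, lacks the imprinting center of the Prader-Willi domain, and the other was wild-type, from age-matched litters, with the age itself not given in the sources used here. Each of the 14 arrays held RNA of the whole brain or of the vastus lateralis, a muscle of the quadriceps, and in either tissue 4 arrays came from wild-type and 3 from PWS-IC del mice. The titles number the arrays as biological replicas without saying which brain and muscle samples came from the same mouse.

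The cytosolic ribosome translates nuclear-encoded messenger RNA, with a small subunit that decodes the message and a large subunit that forms the peptide bond. Most of its proteins are made in nearly every cell type, from messages that begin with a run of pyrimidines and are controlled as a group by the TOR pathway. A few have paralogs with a narrower tissue range, such as Rpl3l, the striated muscle paralog of Rpl3, and Rpl39l, best known from testis. The series compared the genotypes in each tissue to find which genes differ in expression, and its tissues also allow brain and muscle to be set side by side.

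Values are log2(intensity + 16), where the added 16 understates differences of dim probe sets, and differences below are on that scale. Median intensity over all probe sets was 142.0 to 170.1 in brain arrays and 88.74 to 96.36 in muscle arrays. Ndn, which the imprinting center controls, lay at 12.04 to 12.79 in wild-type brain and 7.70 to 8.71 in PWS-IC del brain, and at 8.69 to 8.99 against 7.47 to 7.73 in muscle, so it matched the labels. The mean of 10 neuronal markers was 12.70 to 12.83 in brain and 6.15 to 7.81 in muscle. The mean of 15 skeletal muscle markers was 13.61 to 13.79 in muscle, but in brain it reached 9.73 and 9.16 in wild-type replicates 1 and 3, against 6.91 to 7.32 in the other brain arrays.

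Most ribosomal protein messages were bright in every array. Of the 106 probe sets, 77, for 39 genes, had a mean over all arrays of at least 10, and the means ran from 4.22 to 14.01. Among these 77 the median SD between arrays of a group was 0.117 in wild-type brain, 0.053 in PWS-IC del brain, 0.0592 in wild-type muscle and 0.0629 in PWS-IC del muscle, so the wild-type brain arrays scattered most. For 11 genes, Rpl14, Rpl12, Rps25, Rps6 and Rps16 among them, every probe set was below 10. The Rps16 probe set, at 4.00 to 4.52 in all arrays, was too dim for any comparison.

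In the values as deposited most ribosomal protein probe sets differed little between the tissues. Those called were more often lower in muscle, as were those called among all probe sets. In wild-type mice, muscle minus brain, 101 member probe sets could be tested, of which 11 were higher in muscle and 38 lower (limma, Benjamini-Hochberg adjusted p under 0.05 over all probe sets). Without brain replicate 4 there were 20 higher. The calls make up 48.5% of members, against 76.4% of all 33778 probe sets tested (18.3% higher and 58.1% lower). The median member difference was -0.102, where the median of all probe sets was -0.526, and the interquartile range was 0.467 against 1.37. A difference under 0.5 in size was found for 79.2% of members and 33.8% of all probe sets. The PWS-IC del tissues gave 9 members higher and 42 lower, or 50.5% called against 74.9% of all (18.5% higher, 56.4% lower), with a median of -0.186 against -0.497. In bulk tissue a change in the share of a cell type and a change in RNA per cell cannot be told apart. The comparisons of the genotypes share no array, but in each the muscle arrays had the lower medians. Of the members, 6 probe sets were higher and 31 lower in both, and 0 were called in opposite directions. The same counts over all probe sets are not given here, so no agreement particular to the members can be read from these.

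**Figure D1:**
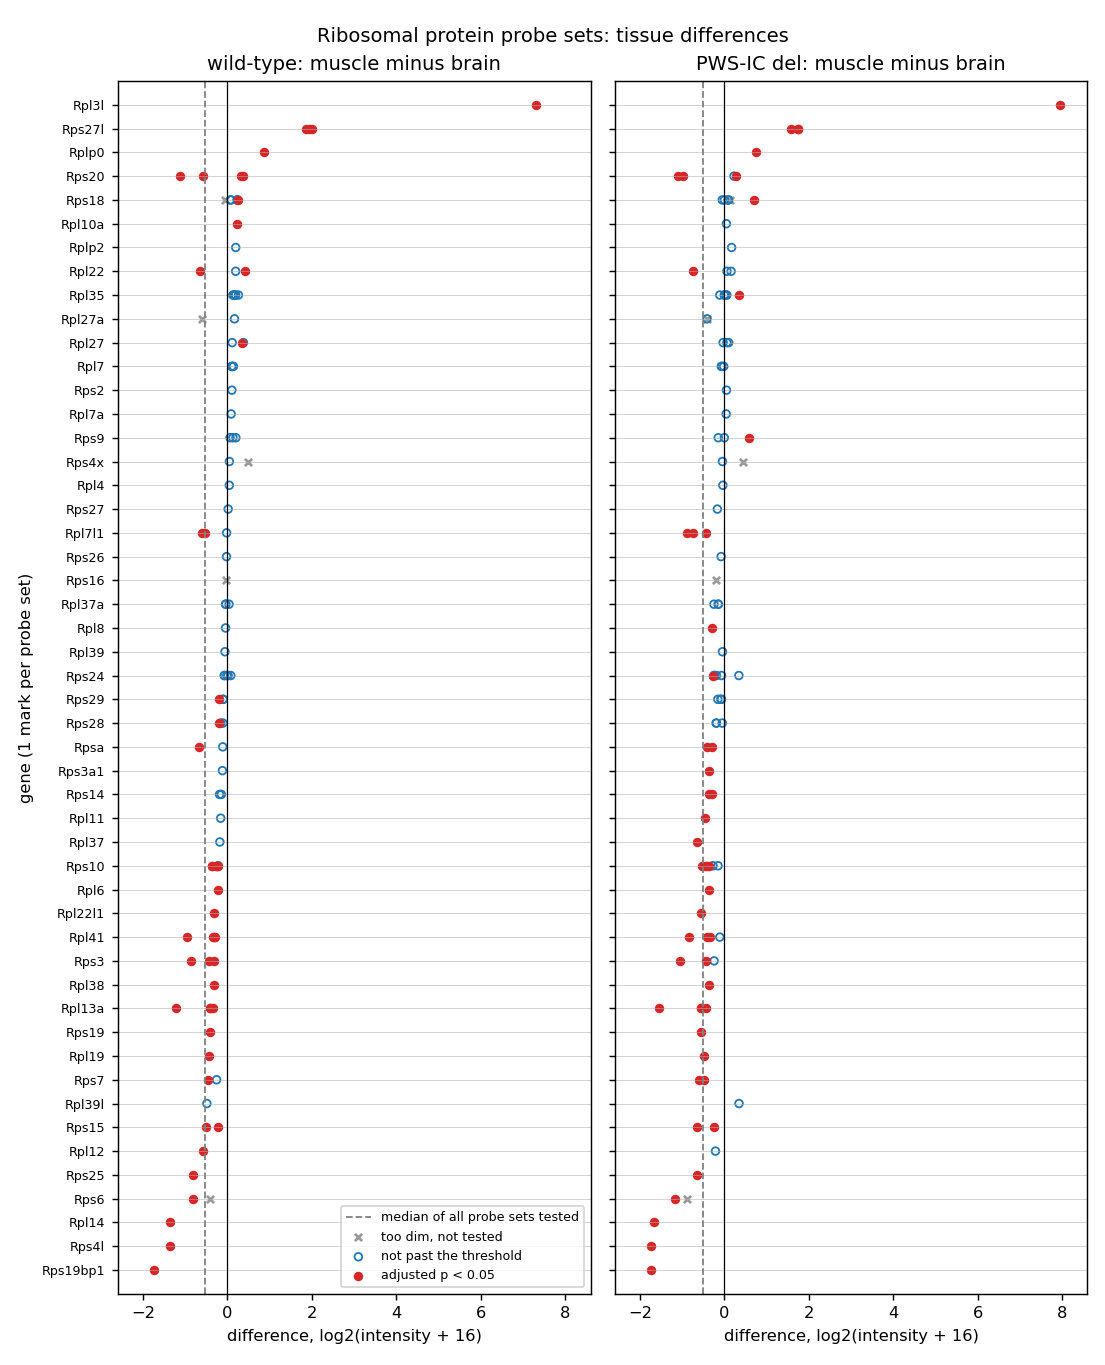
Muscle minus brain on the log2(intensity + 16) scale for every member probe set, by gene, in wild-type (left) and PWS-IC del mice (right). Filled marks passed the adjusted threshold of 0.05, and the dashed line is the median of all probe sets tested, -0.526 and -0.497; Rpl3l stands alone at 7.30 and 7.96, and most genes lie between the dashed line and a small positive difference.

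The direction and the size of these differences depended on how the arrays were scaled, since most probe sets read lower in muscle. The median member difference in wild-type mice was 0.0695 with quantile normalization and 0.573 with median centring. Quantile normalization moved the median of all probe sets in wild-type mice from -0.526 to 0.147 and median centring moved it to 0.15. The members then counted 32 higher and 19 lower under quantile normalization and 77 higher and 3 lower under median centring. Of all probe sets 41.4% were then higher and 31.2% lower, and 40.6% and 30.8%. The PWS-IC del counts became 25 higher and 32 lower, and 68 higher and 7 lower, against 42.5% higher and 32.3% lower, and 41.0% and 33.4%, of all probe sets, whose medians were 0.162 and 0.138. Relative to the median of all probe sets, the median member difference in wild-type mice was above it as deposited and with centring, by 0.42, but below it after quantile normalization (0.0695 against 0.147). Called the same way under all 3 scalings in wild-type mice were 11 probe sets of 8 genes higher in muscle (Rpl3l, Rps27l, Rplp0, Rps20, Rpl10a, Rpl22, Rps18 and Rpl27) and 3 probe sets lower (Rps19bp1, Rpl14 and 1 of Rpl13a). In PWS-IC del mice 9 probe sets of 7 genes were higher and 5 lower, again with Rpl3l, Rps27l and Rplp0 on one side and Rps19bp1, Rpl14 and Rpl13a on the other. The share of all probe sets called the same way under all 3 scalings is not given here. Whether these counts are few or many for the array is therefore not known.

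**Figure D2:**
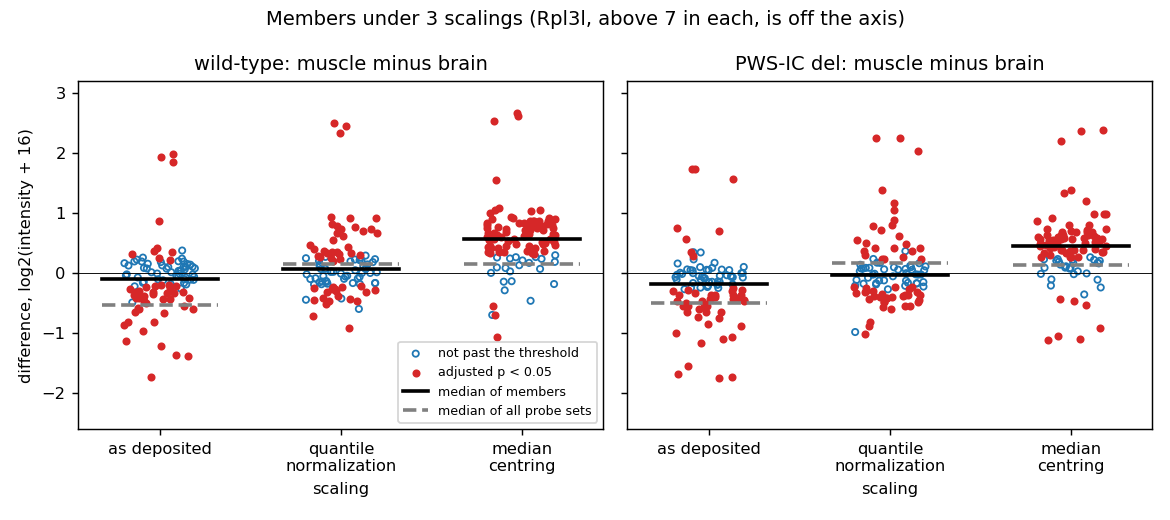
Muscle minus brain (log2(intensity + 16), linear axis) of the members under 3 scalings, in wild-type (left) and PWS-IC del mice (right); each point is a probe set and Rpl3l is off the axis. Filled points passed the threshold, black bars are medians of members and dashed bars medians of all probe sets: the wild-type member median goes from -0.102 as deposited to 0.0695 and 0.573.

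Rpl3l gave by far the widest tissue contrast of the members. It read 5.65, 5.19, 5.79 and 5.34 in wild-type brain and 4.70, 4.89 and 5.16 in PWS-IC del brain. In muscle it read 12.86, 12.70, 12.82 and 12.82 in wild-type and 12.91, 12.82 and 12.88 in PWS-IC del mice. The tissues did not overlap, and within muscle all 7 arrays lay within a narrow band. All 7 brain arrays lay below 6.10, the level under which a probe set was not tested in brain, and the muscle means exceeded that level by 6.70 in wild-type and by 6.77 in PWS-IC del mice. The fitted differences from the dim brain values were 7.30 ± 0.14 (SE; adjusted p = 7.17e-10) and 7.96 ± 0.14 (adjusted p = 5.05e-09), of which the size is therefore not exact. In brain, the 2 highest Rpl3l values were in wild-type replicates 1 and 3, in which the muscle enzyme gene Ckm read 10.38 and 9.61 against 6.38 to 7.25 in the other brain arrays; the part of such transcripts in the brain values of Rpl3l was not tested.

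The parent gene Rpl3 is on no probe set of its own. A probe set shared with the symbol Gm12816 read 13.55 to 13.67 in wild-type brain and 11.39 to 12.04 in wild-type muscle, a difference of -1.97 ± 0.14 (adjusted p = 6.4e-07), and the PWS-IC del difference was -1.97 ± 0.16. A second, dim one shared by Gm5879, Gm12816 and Rpl3 differed by -0.30 in wild-type mice, which did not pass (adjusted p = 0.157). As these probe sets carry other symbols too, the signal cannot be given to Rpl3 alone.

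The stretch around the transcription start is shown for Rpl3l and for ribosomal protein genes with other tissue patterns. Rps27l was higher in muscle, and Rpl14 was lower at its only probe set, a dim one. Its parent Rps27, in the case of Rps27l, and Rpl7a had tissue differences not past the threshold as deposited. Both passed as higher in muscle with median centring (0.69 and 0.76 in wild-type mice). The sequences are RefSeq's, build GRCm38.p6, each with 80 bases before the annotated start and 20 from it, in the direction of the gene. Capitals mark CAGCTG, an E-box, CCGGAAG, a motif of ETS factors, or a pyrimidine run that begins with C within 5 bases of the start.
Rpl3l: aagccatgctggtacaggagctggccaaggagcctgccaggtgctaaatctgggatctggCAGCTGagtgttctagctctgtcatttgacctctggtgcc
Rps27l: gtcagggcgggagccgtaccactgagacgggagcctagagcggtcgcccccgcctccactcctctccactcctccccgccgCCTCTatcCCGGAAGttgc
Rps27: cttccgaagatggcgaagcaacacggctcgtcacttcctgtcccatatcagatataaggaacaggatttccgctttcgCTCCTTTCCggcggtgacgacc
Rpl7a: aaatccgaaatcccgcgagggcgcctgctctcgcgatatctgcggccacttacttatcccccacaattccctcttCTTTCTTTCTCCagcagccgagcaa
Rpl14: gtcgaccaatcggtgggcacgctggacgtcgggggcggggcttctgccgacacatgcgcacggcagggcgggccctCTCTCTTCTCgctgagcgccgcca

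They lie at chr17:24727746-24727845 (plus strand) for Rpl3l, chr9:66946006-66946105 (plus) for Rps27l, chr3:90213629-90213728 (minus) for Rps27, chr2:26910727-26910826 (plus) for Rpl7a and chr9:120571437-120571536 (plus) for Rpl14. The window of Rpl3l holds CAGCTG beginning 20 bases before the start and has no pyrimidine run at the start. The other 4 windows shown have one. RefSeq lists 2 starts each for Rpl3l and Rps27l. The Rpl3l start not shown has no CAGCTG, and the Rps27l start not shown has neither a pyrimidine run nor CCGGAAG. Rplp0, also higher in muscle, has no pyrimidine start either, so the contrast depends on the starts and genes shown. Over the RefSeq windows of 250 bases before to 50 after a start, 44 of the 50 genes were listed, with 52 starts. A pyrimidine start, a C with at least 4 more C or T after it, was present at 21 of these, or 40.4%, against 18.3% of all 32851 starts. CCGGAAG, on either strand, stood in 40.4% of member windows and 8.86% of all. CAGCTG was in 5.77% against 16.3%, in the windows of Rpl3l, Rpl6 and Rpl35, and TATAAA in 11.5% against 13.6%. These are matches of letters and say nothing about binding.

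Rps27l, the paralog of Rps27 and a known target of p53, was the second member with a large muscle excess. Its brightest probe set read 9.90, 10.02, 10.26 and 10.84 in wild-type brain and 10.72, 10.78 and 10.58 in PWS-IC del brain. In muscle the values were 12.12, 12.10, 12.25 and 11.98 in wild-type and 12.26, 12.32 and 12.22 in PWS-IC del mice. Wild-type brain thus spread over nearly 1 log2 unit, and still every muscle array lay above every brain array. The muscle excess was 1.86 ± 0.19 (adjusted p = 1.14e-05) in wild-type and 1.57 ± 0.11 in PWS-IC del mice (adjusted p = 2.17e-06). All 3 of its probe sets passed in both genotypes, from 1.86 to 1.99 in wild-type mice. The parent Rps27, at 12.20 to 12.44 in all 14 arrays, differed by 0.02 ± 0.08 in wild-type and by -0.16 ± 0.10 in PWS-IC del mice as deposited, and neither passed. In wild-type mice Rps27 passed as higher in muscle with quantile normalization (0.21, adjusted p = 0.0308) and median centring (0.69, adjusted p = 0.000156). In PWS-IC del mice it did so with median centring (0.47, adjusted p = 0.00291) but not with quantile normalization (0.033).

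Rps4l, named for its likeness to the X-linked Rps4x and listed by RefSeq as a transcribed pseudogene on chromosome 6, was lower in muscle as deposited. In brain it read 7.32, 7.77, 9.37 and 9.45 in wild-type and 9.02, 9.44 and 7.82 in PWS-IC del mice, so arrays of the same group lay about 2 units apart in wild-type mice. In muscle it was more even, at 6.94, 7.25, 7.09 and 7.13, and 7.39, 7.28 and 6.44. The difference was -1.37 ± 0.45 (adjusted p = 0.0185) in wild-type mice, without brain replicate 3 it was -1.08 and missed the threshold (adjusted p = 0.0502), and with quantile normalization it was -0.60 (adjusted p = 0.247). The PWS-IC del difference was -1.72 ± 0.41 (adjusted p = 0.00481), which missed the threshold with quantile normalization (-0.98, adjusted p = 0.0574). Its parent Rps4x read 13.03 to 13.24 in all arrays at its bright probe set, with differences of 0.05 ± 0.08 and -0.04 ± 0.10 that did not pass. With median centring they were 0.72 (adjusted p = 0.000111) and 0.59 (adjusted p = 0.00063) and passed.

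Rpl39l, paralog of the exit tunnel protein gene Rpl39, varied most between muscle arrays. It read 6.93, 8.10, 7.11 and 7.15 in wild-type muscle and 8.00, 8.40 and 6.86 in PWS-IC del muscle. The 3 arrays at or above 8 were also the 3 with the highest Adipoq, the fat cell hormone gene. Adipoq read 12.78, 12.58 and 13.10 there, against 10.85 to 11.59 in the other muscle arrays. The mean of 6 fat cell markers was 11.68, 11.30 and 11.95 there, against 9.88 to 10.59. The same 3 arrays had the highest muscle means of 7 fibroblast markers, 10.91, 10.97 and 11.29 against 10.36 to 10.59. They also had the highest muscle means of 11 macrophage or microglia markers, so the pattern was not particular to fat cells. The part of these cell types in the result was not tested. In brain, where Adipoq lay between 4.86 and 5.32, Rpl39l read 8.11, 7.83, 8.13 and 7.19 in wild-type and 7.36, 7.34 and 7.50 in PWS-IC del mice. Muscle minus brain was -0.49 ± 0.29 in wild-type mice, did not pass, and passed without muscle replicate 2 (-0.75, adjusted p = 0.0152) or without brain replicate 4 (-0.70, adjusted p = 0.0377). For PWS-IC del mice it was 0.35 ± 0.34, did not pass, and passed without muscle replicate 3 (0.80, adjusted p = 0.00215). It also passed with quantile normalization (1.05, adjusted p = 0.0329), median centring (0.98, adjusted p = 0.0275) and array weights (0.87, adjusted p = 0.00568). The parent Rpl39 read 11.46 to 11.71 in all arrays, with differences of -0.06 ± 0.09 and -0.04 ± 0.10 as deposited. Both passed as higher in muscle with quantile normalization (0.34 and 0.37, adjusted p = 0.00409 and 0.00463). They also passed with median centring (0.62 and 0.59, adjusted p = 0.000532 and 0.000595).

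**Figure D3:**
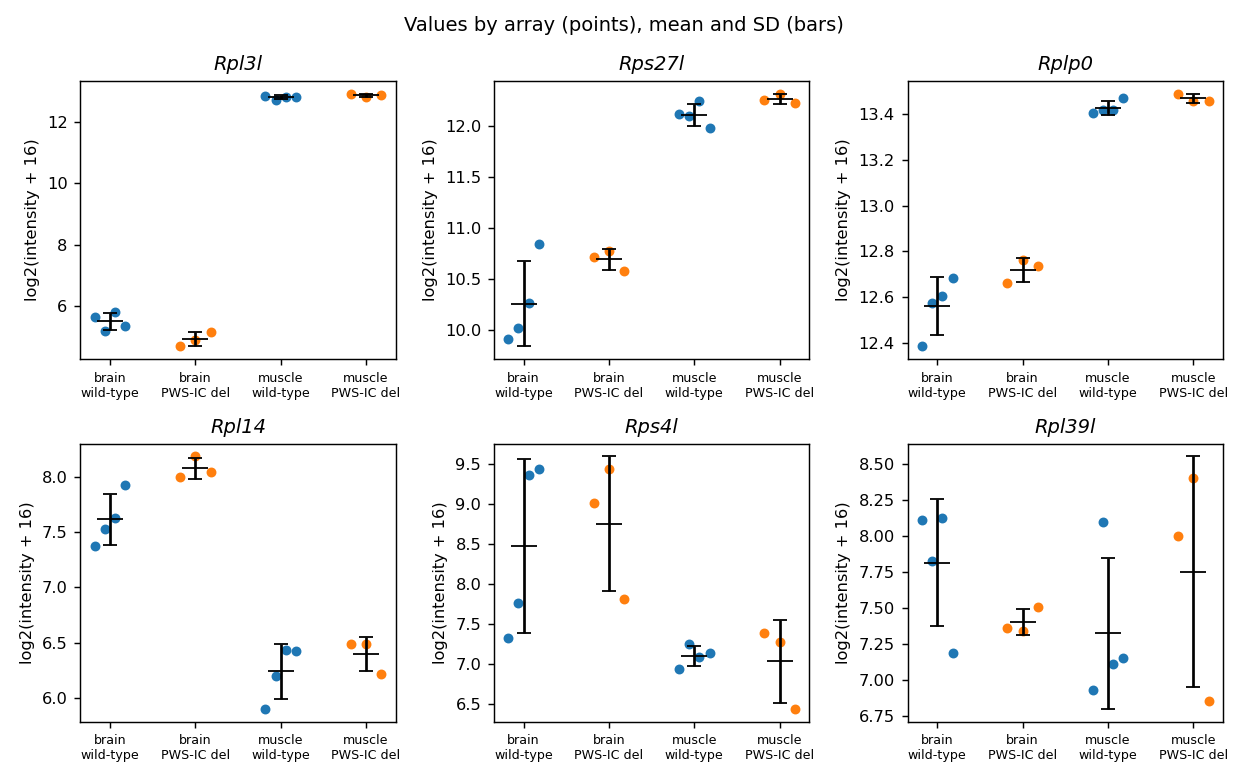
Log2(intensity + 16) of each array for 6 members, with brain and muscle of wild-type (blue) and PWS-IC del mice (orange); horizontal bars are means, error bars SD, n = 4 wild-type and 3 PWS-IC del, and each panel has its own axis, which does not start at 0. Rpl3l, Rps27l and Rplp0 separate the tissues, Rpl14 separates them the other way, and Rps4l in brain and Rpl39l in muscle spread widely within a group.

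Rpl22l1 and Rpl7l1 showed smaller differences. Rpl22l1, paralog of Rpl22, read 12.41 to 12.86 in wild-type brain and 12.21 to 12.51 in wild-type muscle, a difference of -0.31 ± 0.13 (adjusted p = 0.0479) that missed the threshold without muscle replicate 1, 3 or 4 or brain replicate 3 or 4 (adjusted p = 0.103, 0.0862, 0.118, 0.12 and 0.113) and turned to 0.36 with median centring. In PWS-IC del mice it was -0.54 ± 0.11 (adjusted p = 0.00189), and 0.09 with median centring. Rpl7l1, which takes part in making the large subunit, differed by -0.02 ± 0.14 in wild-type and by -0.43 ± 0.13 (adjusted p = 0.0156) in PWS-IC del mice at its brightest probe set, and by 0.36 in the latter with quantile normalization. Without PWS-IC del muscle replicate 2 that call was lost (-0.36, adjusted p = 0.0645). Its other 2 probe sets were lower in muscle in both genotypes as deposited, with differences of -0.87 to -0.54. None of these calls passed under the other scalings, where the wild-type differences turned to 0.18 and 0.27 (quantile) and 0.071 and 0.13 (centring). The parent Rpl7 differed by 0.11 ± 0.09 in wild-type and by -0.07 ± 0.10 in PWS-IC del mice as deposited. With median centring these were 0.78 (adjusted p = 0.00011) and 0.56 (adjusted p = 0.000781) and passed.

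Of the stalk proteins, which recruit elongation factors to the large subunit, Rplp0 was higher in muscle and Rplp2 was called only under some alternatives. Rplp0 read 12.38, 12.57, 12.60 and 12.68 in wild-type brain, 12.66, 12.76 and 12.73 in PWS-IC del brain, 13.40, 13.42, 13.42 and 13.47 in wild-type muscle, and 13.49, 13.46 and 13.46 in PWS-IC del muscle. The groups of the tissues were apart, and the muscle excess was 0.87 ± 0.09 (adjusted p = 1.46e-05) in wild-type and 0.75 ± 0.10 (adjusted p = 0.000144) in PWS-IC del mice. Rplp2 differed by 0.20 ± 0.09 (adjusted p = 0.0685) and 0.17 ± 0.10. In wild-type mice it passed without brain replicate 4 (0.25, adjusted p = 0.0268) and with median centring (0.87, adjusted p = 4.67e-05). It also passed there with an intensity trend, array weights, a joint fit and a pseudocount of 64 (adjusted p = 0.0141, 0.0342, 0.0348 and 0.0408). In PWS-IC del mice it passed with median centring, an intensity trend and array weights (adjusted p = 0.000121, 0.016 and 0.0417). Rpsa, the small subunit protein also known as laminin receptor, differed by -0.11 ± 0.09 in wild-type mice and by -0.28 ± 0.10 (adjusted p = 0.0299) in PWS-IC del mice, and by 0.35 there with median centring. Without brain replicate 1, 2 or 3 or muscle replicate 2 or 3 the PWS-IC del call was lost, with adjusted p of 0.0801, 0.0674, 0.0576, 0.0948 and 0.0609.

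Among the other large subunit genes Rpl14 had the largest fall from brain to muscle in both genotypes at the brightest probe sets. It read 7.38, 7.52, 7.63 and 7.93 in wild-type brain and 7.99, 8.18 and 8.05 in PWS-IC del brain, against 5.90, 6.20, 6.44 and 6.43, and 6.49, 6.49 and 6.22 in muscle. The tissues did not overlap, with differences of -1.37 ± 0.16 (adjusted p = 2.65e-05) and -1.68 ± 0.12 (adjusted p = 3.39e-06). Rpl14 has only 1 probe set, and its muscle values lay close to 6.10, the level under which a probe set was not tested in brain. The size of its fall is therefore not exact. Rpl12 was lower in muscle, with a difference of -0.58 ± 0.20 in wild-type mice (adjusted p = 0.0215) as deposited, was at 0.083 and 0.10 with quantile normalization and median centring, and missed the threshold without muscle replicate 1 (adjusted p = 0.0621) or brain replicate 2 (adjusted p = 0.0616). Rpl19 differed by -0.44 ± 0.08 (adjusted p = 0.000605) in wild-type mice and by 0.24 with median centring. Rpl37 differed by -0.18 ± 0.13 in wild-type mice and by -0.65 ± 0.11 (adjusted p = 0.000644) in PWS-IC del mice, a call that was lost with quantile normalization (adjusted p = 0.0773). Rpl10a was higher by 0.22 ± 0.09 in wild-type mice (adjusted p = 0.0371). That call was lost without muscle replicate 1, 2 or 4 (adjusted p = 0.0729, 0.0847 and 0.0795) or brain replicate 1, 2 or 3 (adjusted p = 0.0817, 0.0692 and 0.0544).

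In the small subunit, Rps6, the substrate of the S6 kinases, read 8.88, 9.25, 9.46 and 9.63 in wild-type brain and 8.46, 8.57, 8.44 and 8.48 in wild-type muscle. The difference was -0.82 ± 0.15 (adjusted p = 0.000746) in wild-type mice, where quantile normalization turned it to 0.015, and -1.16 ± 0.15 (adjusted p = 0.000112) in PWS-IC del mice, where it passed under all 3 scalings. Rps25, needed for some internal ribosome entry sites, was lower in muscle as deposited, with differences of -0.81 ± 0.11 and -0.64 ± 0.12, and did not pass with median centring in either genotype. Rps7, Rps15 and Rps19, the last a gene mutated in Diamond-Blackfan anaemia, were lower in muscle, with differences of -0.46 ± 0.09, -0.50 ± 0.08 and -0.41 ± 0.09 in wild-type and -0.60 ± 0.10, -0.65 ± 0.11 and -0.56 ± 0.10 in PWS-IC del mice. With median centring the wild-type differences of these 3 were 0.21, 0.17 and 0.27. Rps19bp1 matches the rule by its letters but encodes a nucleolar protein that binds Rps19, and it was lower in muscle, with differences of -1.73 ± 0.14 and -1.74 ± 0.14 (adjusted p = 1.89e-06 and 5.26e-06).

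Probe sets of 1 gene did not always move together. Of the 24 genes with several probe sets, up to 6 each, Rps20 and Rpl22 had calls in both directions in wild-type mice, and Rps20 in PWS-IC del mice. The bright pair of Rps20 read 12.84 to 13.24 in wild-type brain and 13.21 to 13.54 in wild-type muscle, differences of 0.37 ± 0.10 (adjusted p = 0.00583) and 0.32 ± 0.09. Its dim pair differed by -1.14 ± 0.18 and -0.59 ± 0.22 in the same arrays, and neither passed under the other scalings (-0.44 and 0.029 with quantile normalization). In PWS-IC del mice the brightest gave 0.29 ± 0.11 (adjusted p = 0.0359), which missed the threshold without muscle replicate 1 or 2 (adjusted p = 0.0845 and 0.0874) or brain replicate 2 or 3 (adjusted p = 0.0944 and 0.0873), and the dim pair gave -1.10 and -0.99. For Rpl22, a probe set at 11.15 to 11.66 in wild-type brain was higher in muscle by 0.41 ± 0.12 and another, at 10.57 to 10.82, differed by -0.65 ± 0.10, but by 0.022 and 0.030 with quantile normalization and centring. Rpl13a had all 4 of its probe sets lower in both genotypes, with differences of -1.21 to -0.33 in wild-type mice as deposited. With median centring 3 of them turned to 0.26, 0.27 and 0.34 in wild-type mice, the last called higher (adjusted p = 0.0139), while the fourth stayed lower at -0.54. Members read by probe sets with the suffix x_at, which may bind several similar transcripts, had a median of -0.0102 in wild-type mice as deposited. Those with the plain suffix at had -0.265, with 41.0% and 61.3% called, against 76.4% of all probe sets. Brightness gave a like split: members at or above 10 had a median of -0.0445 with 42.9% called, and those below 10 had -0.561 with 66.7%. Over all probe sets the medians were -0.236 at or above 10 with 78.9% called, and -0.561 below 10 with 76.0% called. The dim members thus had the same median as all dim probe sets. The parts of suffix and brightness were not tested.

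The genotype comparison in brain called 0 of 100 member probe sets (limma with Benjamini-Hochberg adjustment, smallest adjusted p = 0.614), where 0.0711% of all probe sets were called. At an unadjusted p under 0.05 there were 9 members, or 9 of 100, and 6.35% of all probe sets. PWS-IC del minus wild-type was positive for 85 of 100 members, with a median of 0.142, against 53.5% and 0.0204 for all probe sets. Brightness moved with this: of the 77 bright members 73 were positive with a median of 0.144, and of all probe sets with a mean of at least 10, 76.3% were positive with a median of 0.101. Of the 23 members under 10 that were tested, 12 were positive and 11 negative, with a median of 0.0773. The groups did not overlap for 16 members that were higher and 4 that were lower, against 4.48% and 3.39% of all probe sets.

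**Figure D4:**
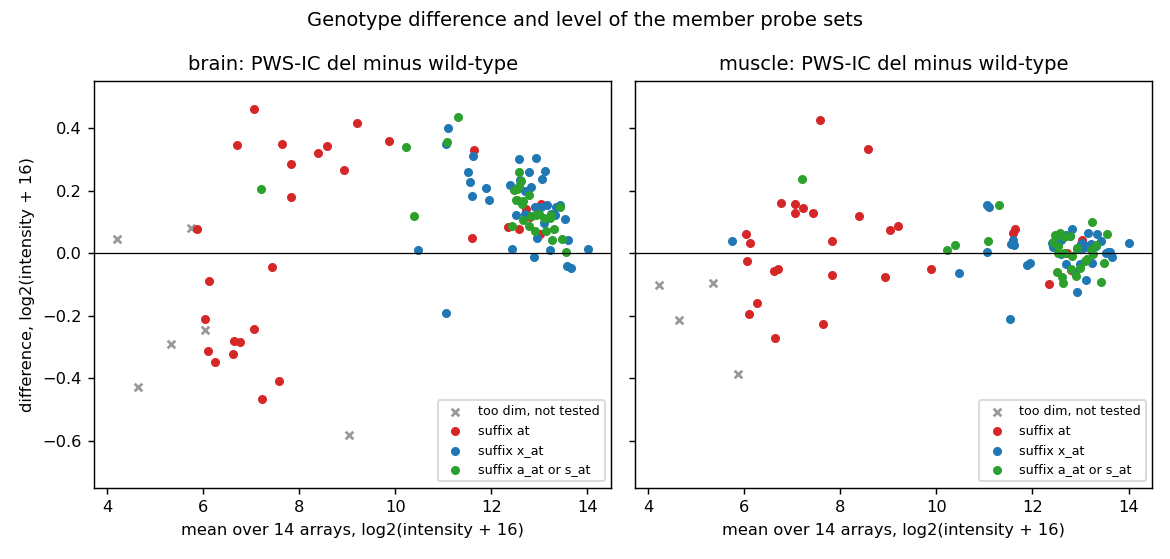
PWS-IC del minus wild-type (log2(intensity + 16)) of each member probe set against its mean over the 14 arrays, in brain (left) and muscle (right), coloured by probe set suffix. In brain 73 of the 77 probe sets at or above 10 lie above 0, with a median of 0.144, and 0 of those tested passed the threshold in either tissue.

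The member with the smallest brain p was Rps18 at a dim probe set, 7.50, 7.21, 7.35 and 6.95 in wild-type against 6.79, 6.75 and 6.82 in PWS-IC del brain, a difference of -0.47 ± 0.14, chosen here after its values were seen. The bright Rps18 probe set gave 0.15 ± 0.11. By the naming rule Rpl14 came first, with the values above and a difference of 0.46 ± 0.14, and the PWS-IC del arrays lay above all wild-type arrays. Rps27l differed by 0.44 ± 0.22, with the highest wild-type array, replicate 4, above all PWS-IC del arrays. Rpl7l1 differed by 0.36 ± 0.16, Rps19bp1 by 0.34 ± 0.13, Rpl27a by 0.35 ± 0.20, Rpl37 by 0.26 ± 0.15, Rpl35 by 0.21 ± 0.12, Rpl22 by 0.19 ± 0.11 and Rps19 by 0.17 ± 0.10. Rpl39l went the other way at -0.41 ± 0.22. All of these had an adjusted p of 0.614. Rpl3l, at -0.58, was too dim in brain to be tested.

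Brain wild-type replicates 1 and 2 were the lowest brain arrays for the bright members. The mean deviation of the 77 bright members from the brain mean was -0.185, -0.127, -0.0339 and 0.0911 in wild-type replicates 1 to 4 and 0.107, 0.0894 and 0.0585 in the PWS-IC del arrays. All probe sets of that brightness deviated by -0.125, -0.0697, -0.0166 and 0.0589, and by 0.0721, 0.0909 and -0.0103. The same wild-type arrays 1 and 2 had the highest striatal neuron marker means, 11.57 and 10.99 over 9 genes against 9.44 to 10.70 elsewhere in brain, and the lowest choroid plexus means, 7.05 and 7.10 over 8 genes against 8.00 to 9.63. Other brain arrays stood apart for other markers. Cerebellar neuron markers read 12.20 in PWS-IC del replicate 2 against 8.42 to 9.96 elsewhere in brain. Pituitary markers read 7.65 in wild-type replicate 3 against 6.07 to 6.25. The part of tissue composition in the result was not tested. Without wild-type replicates 1 and 2, 80 of 100 members were positive, against 85 with all arrays, with a median of 0.0487 against 0.00885 for all probe sets. As the arrays left out were the lowest for the bright members, a smaller median was bound to follow, and it says nothing about a cause.

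**Figure D5:**
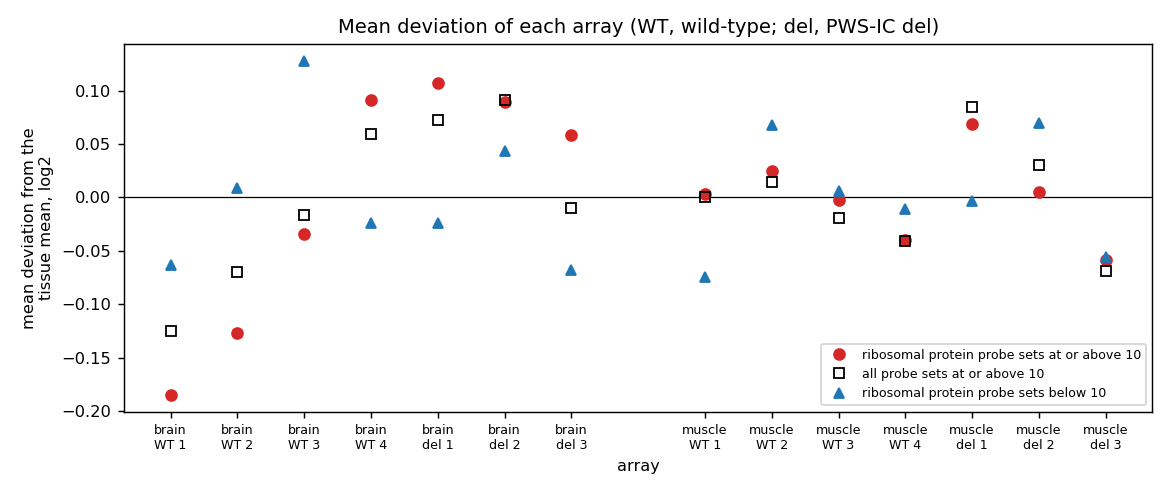
Mean deviation of each array from the mean of its tissue (log2, linear axis) for ribosomal protein probe sets at or above 10 (red circles), all probe sets at or above 10 (squares) and ribosomal protein probe sets below 10 (triangles). Brain wild-type replicates 1 and 2 are the lowest for the bright members, at -0.185 and -0.127, and the muscle arrays stay between -0.0591 and 0.0688.

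In muscle the genotype comparison called 0 of 102 members (smallest adjusted p = 0.371), against 0.142% of all probe sets, and 2 members, against 12.1% of all probe sets, had an unadjusted p under 0.05. The difference was positive for 64 members with a median of 0.0216, where all probe sets were 49.9% positive with a median of -0.000202. All probe sets with a mean of at least 10 were 61.0% positive with a median of 0.0303, and the 77 bright members 63.6% with 0.0172. With 1 probe set a gene 25 of 49 members were positive. Without PWS-IC del replicate 1 the median over all members was -0.0234 with 37 of 103 positive, so the sign of that median rested on that array. The groups did not overlap for 3 members that were higher and 3 that were lower, against 5.13% and 6.76% of all probe sets.

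Rpl37 had the smallest p by the naming rule: it read 11.44, 11.47, 11.50 and 11.28 in wild-type and 11.27, 11.12 and 11.24 in PWS-IC del muscle. The groups were just apart, with a difference of -0.21 ± 0.09 (adjusted p = 0.407). With array quality weights the difference was -0.28 (adjusted p = 0.0487) and Rpl37 was the 1 member called, in a fit that called 2998 of all probe sets. Rps19bp1 differed by 0.33 ± 0.15 (adjusted p = 0.419), with wild-type values of 7.36, 7.82, 7.39 and 7.71 and PWS-IC del values of 8.13, 7.87 and 7.71. Rpl27a differed by -0.23 ± 0.14, Rps27l by 0.15 ± 0.09, Rps25 by 0.13 ± 0.09, Rps18 by -0.12 ± 0.08, Rplp2 by 0.10 ± 0.08, Rps27 by -0.10 ± 0.08, Rpl8 by -0.10 ± 0.08 and Rps3a1 by -0.09 ± 0.08. Rpl3l, the bright muscle paralog, differed by 0.07 ± 0.08.

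The genotype differences of the tissues were also set against each other, muscle minus brain. Of 101 members 0 passed (smallest adjusted p = 0.763), against 0.077% of all probe sets, and 6 members had an unadjusted p under 0.05, against 5.42% of all probe sets. The median was -0.134 with 22 positive, against -0.017 with 46.9% positive for all probe sets. Without brain wild-type replicates 1 and 2 the member median was -0.034 with 37 positive. All probe sets with a mean of at least 10 had a median of -0.0689 with 32.5% positive, and the 77 bright members -0.14 with 10.4%. Rpl3l had the smallest p, at 0.66 ± 0.20, followed by Rpl37 at -0.47 ± 0.18, Rpl27a at -0.58 ± 0.26 and Rps18 at -0.27 ± 0.13. The Rpl3l value rests on its brain signal, which was below the level tested in brain alone.

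The genes that build, feed and regulate the ribosome were counted from lists, with 1 probe set a gene. Beside them stand 18.3% higher and 58.1% lower, with a median of -0.526, over all probe sets in wild-type mice. The 64 ribosome biogenesis genes counted 13 higher and 31 lower in muscle, with a median of -0.232; Rrp1 and Nop58, which act in processing of ribosomal RNA, were lower, at -1.91 ± 0.08 and -1.62 ± 0.11. Of 12 elongation genes 3 were higher and 3 lower, among them Eef2k, the kinase of elongation factor 2, at 1.41 ± 0.10, Eef1d at 1.00 ± 0.13, Eef1a1 at -0.97 ± 0.12 and Eif5a2 at -4.47 ± 0.19. Of 33 initiation genes 9 were higher and 10 lower, led by the poly(A)-binding protein gene Pabpc4 at 2.57 ± 0.10, with Eif1b at -1.67 ± 0.11. Of 21 TOR and LARP1 genes 6 were higher and 8 lower, with the TOR inhibitor genes Sesn3 at -2.57 ± 0.09, Ddit4 at -2.38 ± 0.14 and Deptor at 1.46 ± 0.10. Fau, whose product is a ribosomal protein of the small subunit fused to a ubiquitin-like one, was lower, at -0.42 ± 0.10 (adjusted p = 0.00362), and did not pass with median centring (0.25, adjusted p = 0.0883). Under quantile normalization, an alternative chosen for the lists after the data were seen, the higher and lower counts were 37 and 8 for biogenesis, 4 and 2 for elongation, 20 and 6 for initiation and 13 and 5 for TOR and LARP1 genes. Under median centring they were 34 and 9, 9 and 2, 24 and 4, and 13 and 5. The other genes named from the lists kept their direction and passed under both.

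Between genotypes 0 genes of these lists passed in either tissue. In brain 57 of 64 biogenesis genes, 28 of 33 initiation genes and 7 of 12 elongation genes were positive, with medians of 0.168, 0.119 and 0.122. All probe sets were 53.5% positive with a median of 0.0204, and with 1 probe set a gene, as in the lists, the median was 0.059. Probe sets with a mean of at least 10 were 76.3% positive with a median of 0.101. In muscle the counts were 46, 24 and 6 with medians of 0.0731, 0.0828 and -0.00514. There all probe sets were 49.9% positive with a median of -0.000202, and the median was 0.015 with 1 probe set a gene. Among TOR and LARP1 genes 12 of 21 were positive in each tissue, and the muscle difference of Rictor, a subunit of TOR complex 2, was 0.47 ± 0.10 (adjusted p = 0.127).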

How the data were processed

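Total RNA was hybridised to 14 arrays, 1 colour each. Intensity is deposited unlogged, made with PLIER and the Affymetrix Expression Console per the submitters' processing notes; the sources used here do not give versions, settings, background correction or normalization. They were taken as log2(intensity + 16) with no further scaling. Of 45101 probe sets 64 controls were left out; the platform annotation, which can be old, gave 1 symbol to 34945, several to 932, and does not list 9160. Probe sets below the 0.25 quantile of mean values in a comparison were not tested, which left 6 members out in brain, 4 in muscle and 5 in the tissue comparisons. Groups were compared in R 4.3.3 with limma 3.58.1 (lmFit, then eBayes), 2-sided, with Benjamini-Hochberg adjustment over all 33778 probe sets and a threshold of 0.05, in the arrays of the comparison, or all 14 for the difference of genotype differences. The scripts were tested on simulated data. Errors are SE unless stated, and the number of arrays limits the precision.

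A gene's brightest probe set stands for it. Named are paralogs with their parents, stalk genes and Rpsa, up to 10 genes higher and 10 lower of the largest size past the threshold in each comparison (otherwise the 10 of smallest p), genes with calls of both signs, and up to 4 of each list. The members, lists and rules were chosen with earlier results of these data known. Deviations of same-numbered arrays correlated at -0.309 to 0.00584 between genotypes in brain and 0.00497 to 0.303 in muscle, and at -0.00272 to 0.0599 between wild-type and 0.0571 to 0.168 between PWS-IC del tissues. In no comparison was every pair above 0.1, so the numbers were not taken as pairs. No 2 arrays held identical values. Alternatives covered the pseudocount (1 and 64), scaling, filter, choice of probe sets, intensity trend, array weights, a joint fit, the replicate block, brain wild-type replicates 1 and 2, and each array in turn. Promoter windows are from RefSeq, GRCm38.p6.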

Additional observations from a re-analysis of the deposited data

Results flagged for a closer look

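Over the named members, 64 groups of 4 arrays were looked at for an array far from the others, where chance alone marks about 1 in 20 groups, and 1 was marked. Rpsa in wild-type muscle replicate 3 read 12.61, while the other 3 arrays of that group lay between 12.76 and 12.79, a gap of 0.847 of the group's range.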

How the results depend on the processing

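The members kept 0 genotype calls under every alternative, apart from 1 lower member in muscle with array weights. Counts over all probe sets moved more. In brain the 24 calls became 9 with 1 probe set a gene, 13 with the at suffix only and 11 with the replicate block. In muscle the 48 became 29 without the filter, 16 with 1 probe set a gene, 25 with the at suffix, 95 with an intensity trend, 2998 with array weights, 12 with the replicate block and 16 to 68 leaving out each array. For the difference of genotype differences the 26 became 14 with a pseudocount of 1, 12 with 1 probe set a gene, 12 with the at suffix, 72 with array weights, and 17 to 25 leaving out each array. The cause of these moves was not tested, beyond the fewer probe sets or arrays.

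Tissue counts of members in wild-type mice, 11 higher and 38 lower, became 32 and 19 with quantile normalization, 77 and 3 with median centring, 6 and 17 with 1 probe set a gene, and 3 and 16 with the at suffix; 7 were higher without brain wild-type replicates 1 and 2, and 8 to 20 leaving out each array. In PWS-IC del mice, 9 and 42 became 25 higher with quantile normalization, 68 and 7 with centring, 4 and 23 with 1 probe set a gene, and 5 and 14 with the at suffix. With 1 probe set a gene all calls fell to 11268 and 10834. The replicate block left 8 higher and 30 lower in wild-type and 10 and 41 in PWS-IC del mice; the block lost the calls of Rpl10a (adjusted p = 0.0947) and Rpl22l1 (adjusted p = 0.0807).

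Genes that changed sign did so mostly with scaling. Quantile normalization gave, in wild-type mice, Rpl12 0.083, Rpl39 0.34, Rpl39l 0.23, Rpl7l1 0.73 and Rps6 0.015, and in PWS-IC del mice Rpl39 0.37, Rpl7l1 0.36, Rps25 0.079 and Rps27 0.033. Median centring gave, in wild-type mice, Rpl12 0.10, Rpl19 0.24, Rpl22l1 0.36, Rpl39 0.62, Rpl39l 0.19, Rpl7l1 0.66, Rps15 0.17, Rps19 0.27, Rps7 0.21 and Rpsa 0.56, and for Fau of the lists 0.25. In PWS-IC del mice it gave Rpl22l1 0.091, Rpl39 0.59, Rpl7 0.56, Rpl7l1 0.20, Rps19 0.077, Rps27 0.47, Rps4x 0.59, Rps7 0.031 and Rpsa 0.35. Without brain wild-type replicates 1 and 2, Rpl22l1 was -0.015 and Rps4l -0.65 for the brain genotype, Rps27l 0.014 and Rps4l 0.58 for the difference of genotype differences, and Rps27 -0.016 for wild-type tissues. Array weights turned Rps4l to 0.13 in muscle and 0.012 in the difference. Leaving out each array, Rps4l ran from -0.10 to 0.75 in brain, -0.25 to 0.23 in muscle and -0.82 to 0.032 in the difference, Rpl7l1 from -0.17 to 0.014 in muscle and -0.14 to 0.056 between wild-type tissues, and Rps27 from -0.000535 to 0.043 there.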

Other observations

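The 110 probe sets that name a ribosomal protein gene beside another symbol were not members, but they cover genes that the members lack. In brain 95 of the 106 tested had a positive genotype difference, with a median of 0.124, and 0 were called. All probe sets were 53.5% positive with a median of 0.0204 and 0.0711% called, and those with a mean of at least 10 were 76.3% positive with 0.101. In muscle 46 of 105 were positive with a median of -0.00818, and 0 were called. There all probe sets were 49.9% positive with a median of -0.000202 and 0.142% called, and those of at least 10 were 61.0% positive with 0.0303. Muscle minus brain, 7 were higher and 33 lower in wild-type mice (37.7% called), and 0 were higher and 55 lower in PWS-IC del mice (52.4% called). Of all probe sets 76.4% and 74.9% were called, 58.1% and 56.4% as lower. These counts are for the values as deposited, and for the members the balance of higher and lower calls changed with scaling.

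Eef1a1, the general form of elongation factor 1A, read 13.89 to 13.93 in wild-type brain and 12.70 to 13.22 in wild-type muscle. Its paralog Eef1a2, the form of muscle and neurons, read 13.01 to 13.35 and 13.29 to 13.41 in the same groups, a difference of 0.23 ± 0.10 that did not pass (adjusted p = 0.0626).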
